A study of Homo sapiens with 18 samples.

Results

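The broad H3K4me3 domains of NB4 cells were described here. The NB4 line derives from human acute promyelocytic leukemia (APL) and serves as its model in culture. H3K4me3 peaks of 6 ChIP-seq libraries were merged on chromosomes 1 to 22 wherever they overlapped by at least 1 bp. A domain was a merged region of 4000 bp or more with a peak in all 6 lists. This rule selected 340 of 26539 merged regions, or 2.81% of the 12099 regions present in all 6 lists. A further 54 regions reached 4000 bp but lacked a peak in at least 1 list. The domains were chosen by the called H3K4me3 length of these same libraries, so their lengths and pieces are given as a description, without a test.

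Cells had received maltonis, a compound made from maltol, at 10 µM for 24 h, or no treatment, and the labels name no other agent for either group. Each condition had 3 biological replicates for H3K4me3, and 3 each for H3K27ac and H3K9me3, which makes 18 libraries. All cells came from 1 line, so nothing here describes other APL cells. No gene annotation of the build used (hg19) was at hand, so the cell type could not be checked against its markers.

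H3K4me3 is the trimethylation of lysine 4 on histone H3. It is deposited mainly around transcription start sites by enzymes that recognise unmethylated CG-rich DNA. At most active promoters the mark forms a narrow peak, and at a minority it spreads over several kilobases into the gene. Such wide domains are known from genes that define or maintain a cell type, among them transcription factors and signalling genes. H3K27ac marks active promoters and enhancers, whereas H3K9me3 is typical of silent heterochromatin and of repeats near centromeres.

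Gene names could be attached to 64 of the 340 domains by position, 30 through the H3K4me3, 16 through the H3K27ac and 18 through the H3K9me3 annotation of the study. That annotation covers regions which the study itself called changed in these libraries. Names are therefore rich in changed domains, and the absence of a name says nothing about a domain.

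The letters of 4 promoters are given as examples of the sequence at named genes. They belong to the named domains with the largest rise and the largest fall of H3K4me3 fold enrichment (ID2 and ABCA2), and of H3K27ac (HIST1H2AI and BCL11B), among the 51 named domains matched to the RefSeq promoter table. ANO8 is not among the 51. Each run holds the 250 bases before the RefSeq start in GRCh38.p14, read 5′ to 3′ on the strand of the gene, with every CG dinucleotide in capitals. Whether a start lies inside its hg19 domain could not be checked across builds. The ID2 run is chr2:8681806-8682055, plus strand, and the ABCA2 run is chr9:137028923-137029172, minus strand. The run of HIST1H2AI, whose current RefSeq symbol is H2AC13, is chr6:27807923-27808172, plus strand, and that of BCL11B is chr14:99272198-99272447, minus strand.
ID2: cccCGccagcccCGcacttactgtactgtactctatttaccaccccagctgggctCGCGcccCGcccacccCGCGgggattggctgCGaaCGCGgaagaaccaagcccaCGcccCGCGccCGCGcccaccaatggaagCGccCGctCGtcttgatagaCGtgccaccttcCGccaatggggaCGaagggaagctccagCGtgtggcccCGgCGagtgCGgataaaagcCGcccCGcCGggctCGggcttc
ABCA2: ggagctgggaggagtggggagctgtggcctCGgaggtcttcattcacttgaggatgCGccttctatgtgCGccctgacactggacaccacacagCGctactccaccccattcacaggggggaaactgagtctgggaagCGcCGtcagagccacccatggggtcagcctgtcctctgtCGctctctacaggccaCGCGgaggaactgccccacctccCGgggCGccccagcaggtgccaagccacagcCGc
HIST1H2AI: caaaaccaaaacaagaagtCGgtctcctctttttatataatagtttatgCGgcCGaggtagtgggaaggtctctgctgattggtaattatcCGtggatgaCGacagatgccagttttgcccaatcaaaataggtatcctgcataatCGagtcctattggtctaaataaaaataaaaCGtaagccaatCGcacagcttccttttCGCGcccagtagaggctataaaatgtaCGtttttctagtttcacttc
BCL11B: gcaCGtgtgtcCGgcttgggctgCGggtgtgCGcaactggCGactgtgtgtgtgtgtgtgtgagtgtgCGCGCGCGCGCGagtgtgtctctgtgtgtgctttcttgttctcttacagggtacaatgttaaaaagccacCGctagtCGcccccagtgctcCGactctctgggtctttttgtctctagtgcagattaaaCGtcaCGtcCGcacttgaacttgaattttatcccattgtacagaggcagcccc

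The ID2 promoter held 29 CG dinucleotides, BCL11B 17, ABCA2 12 and HIST1H2AI 11. Of the 51 named domains matched to the promoter table, 7 were matched through an older symbol. These 51 carried a median of 21 CG in 250 bases and a median G+C content of 65.6%. In all 35114 promoters of the table the medians were 11 CG and 58.0%, and 93.9% held at least 1 CG. 10 or more CG were present in 80.4% of the promoters of named domains and in 52.2% of all promoters. All promoters include those without H3K4me3, and promoters of narrower regions were not counted. These values therefore do not set the domains apart from other H3K4me3 promoters. The highest number was 48, at IGF1R, the receptor of insulin-like growth factor 1. PTPN3, a tyrosine phosphatase, had 0 CG in this window.

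The domains measured between 4000 and 20710 bp, with a median of 4526 bp and an upper quartile of 5258 bp. Together they spanned 1723 kb. 113 of them reached 5000 bp and 14 reached 8000 bp. The narrowest were a region at chr7:128577792-128581791 with 4000 bp, and 2 regions with 4001 bp named MFAP1 and IGFLR1. Just below the limit lay regions of 3999, 3992 and 3992 bp. Chromosome 2 carried the most domains, with 33, followed by chromosome 19 with 26 and chromosome 6 with 25. In 31 cases the next domain began within 100 kb.

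The position of the widest domains was examined next. On each chromosome the longest stretch without any peak of the 3 marks was located, which on most chromosomes is the unassembled gap at the centromere. 37 domains (10.9%) lay within 1 Mb of it, against 176 of the 11759 narrower shared regions. Of the 10 widest domains 7 lay there, and of the 14 domains of 8000 bp or more 9. The median width was 5650 bp near the stretch and 4471 bp elsewhere. DNA next to centromeres is rich in satellite and duplicated repeats, at which short reads are known to pile up in any library, and no mappability track was used here. The label of a broad H3K4me3 domain is therefore to be read with care for these 37 regions, and some of the results below are also given without them. The other 303 domains were not screened for such repeats. Among them chr2:89865443-89879939 held a mean of 241 H3K9me3 reads per kb of island and chr8:86567943-86573825 82.9. The median was 15.4 over the domains with such islands away from the stretch.

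The widest of all, at chr4:49633428-49654137, was called over 16984, 17124 and 17050 bp in the untreated libraries and over 16960, 17578 and 20680 bp with maltonis. Only maltonis replicate 3 stood apart, and the groups overlapped. The second, at chr2:92305363-92325163, was called over 18997 to 19790 bp in all 6 libraries. The next, at chr4:49098187-49114483, had 12030 to 12149 bp in 5 libraries and 16297 bp in maltonis replicate 3. None of the 37 was called in fold enrichment by the test below without centring, and none of the 24 of them with H3K27ac in all 6 lists was called in H3K27ac. With each library centred on its median, the chr4 and chr2 domains above were called higher (limma adjusted p = 0.0341, 0.0400 and 0.0317, by width). The other domains of the 10 widest that lay near a stretch were at chr10:42355051-42366353 (11303 bp), chr16:46386174-46396740 (10567 bp), chr10:42390701-42400727 (10027 bp) and chr17:22244729-22253691 (8963 bp). The widest domains away from it were chr2:89865443-89879939 (14497 bp), chr7:5459315-5469973 (10659 bp) and chr17:79366729-79375530 (8802 bp). Of these 10 domains 9 carried H3K9me3 in all 6 libraries, and the exception was the last, with H3K9me3 in 2.

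**Figure D1:**
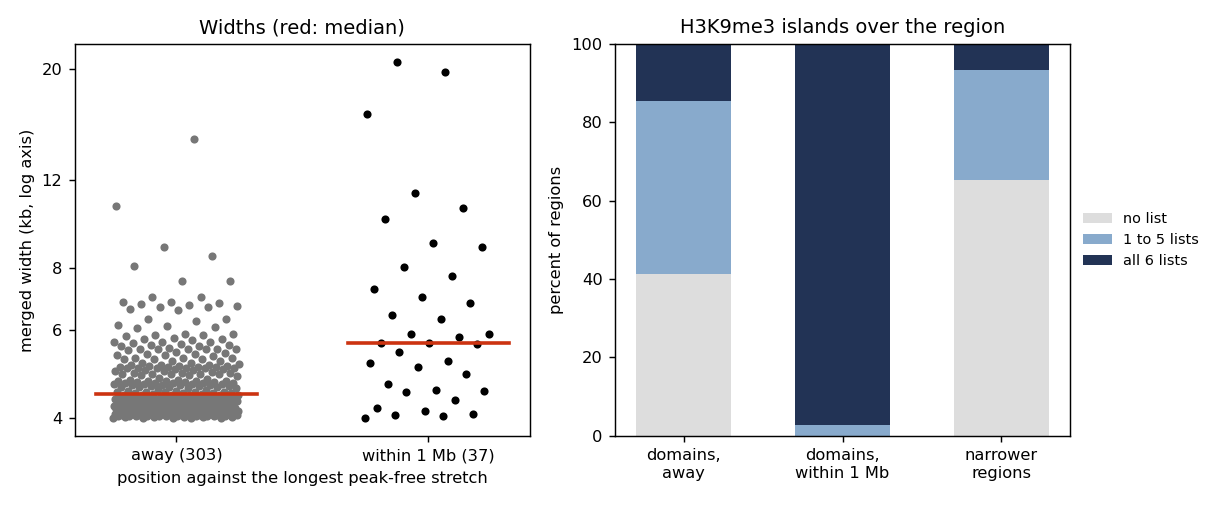
Left, merged width (kb, log axis) of each domain by position, 37 within 1 Mb of and the others away from the longest peak-free stretch of its chromosome, with red lines at the medians, 4471 bp away and 5650 bp near. Right, percent of regions overlapped by H3K9me3 islands in no list, 1 to 5 lists or all 6 lists, where all 6 lists apply to nearly every domain near the stretch and to 776 of the 11759 narrower regions.

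The repressive mark H3K9me3 was found over a part of the domains. 80 domains (23.5%) were overlapped by an H3K9me3 island in all 6 libraries, against 776 of the 11759 narrower shared regions, and 125 (36.8%) in none, against 7690. Within 1 Mb of the peak-free stretch 36 of 37 domains were overlapped in all 6 libraries, at a median of 78.3 H3K9me3 reads per kb of island. Elsewhere 44 of 303 were, at a median of 15.4 reads per kb. A wider region has more room for any overlap, and its part in these shares was not tested.

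In each maltonis library more domains carried an H3K9me3 island than in any untreated one. The untreated libraries had islands over 138, 132 and 126 domains and the maltonis libraries over 151, 152 and 160, so the groups did not overlap (exact permutation test, two-sided, p = 0.1). With 3 libraries per group, 20 assignments exist and 0.1 is the smallest p that this test can give, here and below. The mean share was 38.8% without and 45.4% with maltonis. Away from the peak-free stretch the counts were 101, 95 and 89 without and 115, 115 and 123 with maltonis. For narrower regions the shares were 15.4%, 15.3% and 16.0% without and 19.9%, 20.1% and 19.3% with maltonis. The ratio of the share of domains to that of narrower regions overlapped between the conditions, with 2.32 to 2.64 without and 2.23 to 2.43 with maltonis (exact permutation test, p = 0.2). Over domains, H3K9me3 reads per kb of island fell from 111, 119 and 136 to 101, 107 and 102 with maltonis. The groups did not overlap (exact permutation test, p = 0.1). Over narrower regions these values were 33.5, 34.9 and 34.2 without and 30.8, 30.7 and 31.1 with maltonis. Islands over domains summed to 1350, 1329 and 1113 kb without and 1724, 1590 and 1510 kb with maltonis. Their reads overlapped between conditions (exact permutation test, p = 0.2). At the 260 domains that lacked H3K9me3 in at least 1 library, islands were thin, with 14.6 to 16.8 reads per kb in every library.

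Called H3K4me3 length was next compared between the conditions. The median domain was called over 3900.5, 3820 and 3763 bp in the untreated libraries and over 3964.5, 4099 and 4039 bp with maltonis. All 3 maltonis libraries lay above all 3 untreated ones. For narrower regions these medians were 1472, 1456 and 1432 bp against 1679, 1718 and 1715 bp. The median log2 ratio of the mean lengths was 0.06 over the domains and 0.19 over all shared regions. The number of domains called over 4000 bp or more in a single library was 150, 143 and 137 without and 163, 189 and 178 with maltonis.

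Single domains went both ways. In 118 (34.7%) every maltonis library had a longer call than every untreated one, and in 40 (11.8%) a shorter one. Over all 12099 shared regions these shares were 54.9% and 4.03%. The rule used these lengths, and nothing is read from the counts. 84 domains reached 4000 bp in each of the 6 libraries, and 66 reached it in none and passed only through the merging. Of the bases under the domains 59.0% were called in all 6 libraries. Bases called in the 3 maltonis and in no untreated library made up 4.21% (72.5 kb), and the reverse 1.40% (24.2 kb).

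**Figure D2:**
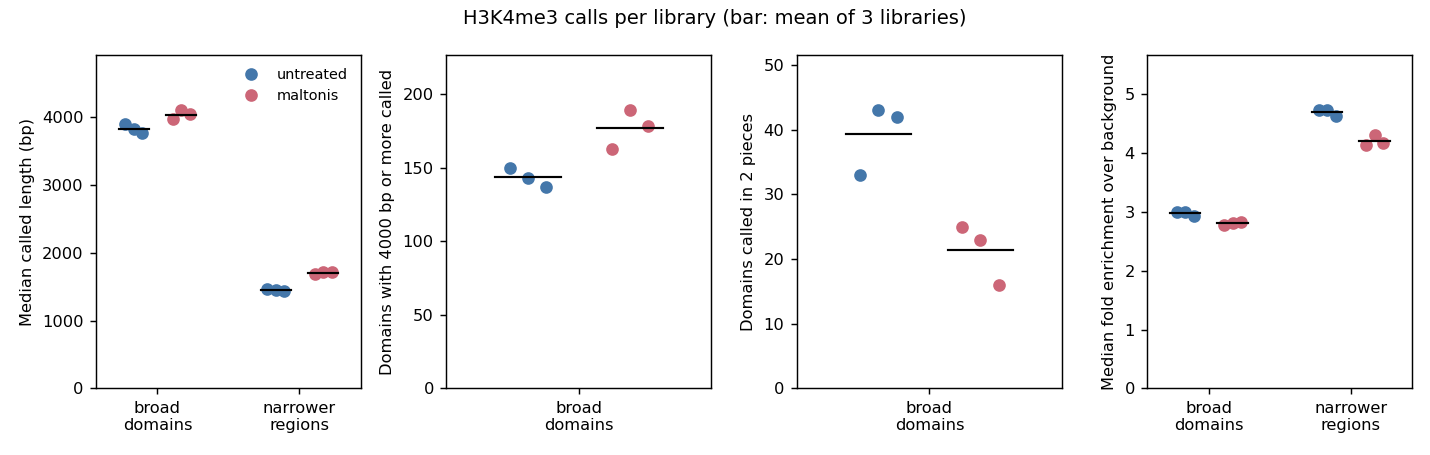
Points are libraries, 3 untreated (blue) and 3 maltonis (red), and bars are means of 3. From left to right, the median called length in bp and, on the right, the median fold enrichment over background are shown for 340 domains and 11759 narrower regions, with the number of domains called over at least 4000 bp and the number called in 2 pieces between them, and the conditions do not overlap in any panel.

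27 domains were called over at least 4000 bp in all maltonis libraries and in no untreated one, and 7 showed the reverse. Among the 27 were HIST1H2BH and HIST1H2BI, GCLC, PTPN3 and ZIC2. GCLC encodes the catalytic subunit that starts glutathione synthesis. Its domain at chr6:53408616-53412955 was called over 1615, 1618 and 1653 bp without maltonis and over 4107, 4181 and 4259 bp with it, in a tight cluster for each condition. The domain of ZIC2, a zinc finger transcription factor, was called over 2802, 2860 and 2860 bp and over 4789, 5030 and 4803 bp. The only named domain of the 7 was ARRDC3, an arrestin-like adaptor, with 4348, 4367 and 4352 bp before and 3309, 3996 and 2845 bp after maltonis.

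The largest relative gain among domains whose libraries did not overlap was at chr12:34837494-34842653, near the centromere. It had 642, 647 and 726 bp without and 4543, 1756 and 1105 bp with maltonis. RGMA, a guidance molecule of growing axons, went from 859, 429 and 559 bp to 1324, 1206 and 3870 bp, and maltonis replicate 3 alone gave the long call. At chr8:86567943-86573825, chr3:151918592-151923236 and chr6:109285466-109289739 the gains also rested on 1 or 2 long calls among the maltonis libraries.

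The largest relative loss was seen at RCOR2, a partner of the corepressor complex that holds the demethylase LSD1. Its domain at chr11:63683265-63687441 was called over 3951, 4177 and 4017 bp in untreated cells. With maltonis the calls shrank to 1475, 466 and 1599 bp, with no overlap, and its fold enrichment of 2.55 ± 0.036 and 2.50 ± 0.083 (SD, n = 3) did not pass the limma test (adjusted p = 0.624). IER5L, a gene related to immediate early genes, went from 3978, 4096 and 3915 bp to 945, 3501 and 1046 bp. The remaining losses by this ranking were at chr2:228745533-228749586, chr8:145686717-145691793 and chr17:27914984-27921294.

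The number of pieces was described in the same way. No domain was called in more than 2 pieces, and 274 were in 1 piece in all 6 libraries. The lists hold no peaks closer to each other than 2401 bp, so a shorter interruption cannot appear as a split. 33, 43 and 42 domains were split in the untreated libraries, and 25, 23 and 16 with maltonis. Of the 11759 narrower shared regions 3, 4 and 2 were split without and 0, 2 and 1 with maltonis, and the groups overlapped. A region under 4000 bp leaves little room for 2 peaks so far apart. The rule used these peaks, and nothing is read from the counts of split domains. 45 domains were split in more untreated than maltonis libraries, and 19 in more maltonis than untreated ones. Without the domains near the peak-free stretch the numbers were 29, 38 and 37 against 19, 17 and 15.

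13 domains were split in every untreated and in no maltonis library, and 2 showed the reverse. At chr3:52566093-52572187 the untreated calls summed to 2352, 2486 and 2252 bp, and a single call of 5923, 5735 and 5772 bp spanned it with maltonis. At chr1:202775138-202780713 calls of 2810, 2591 and 2703 bp became calls of 5526, 5532 and 5521 bp. The widest of the 13, at chr7:5459315-5469973, went from 7264, 7289 and 7055 bp to 9148, 10302 and 10659 bp. ABCA2, GCLC and LINC00176 were the named members of this group. At LINC00176 calls of 1319, 1348 and 1291 bp in sum became single calls of 647, 1026 and 3434 bp. Only maltonis replicate 3 had a longer call there. The 2 reverse cases were chr12:46119659-46125430, from 5207, 5398 and 5052 bp to 3149, 3330 and 3292 bp, and chr1:15849825-15854330, from 3994, 4130 and 3947 bp to 1859, 1900 and 1916 bp.

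Fold enrichment is the mean signal of a called peak over the background estimated by the caller MACS2, averaged here over the pieces of a domain by length. It did not enter the rule, but each value is an average over a called length that did. The domains had a lower median than narrower regions in each of the 6 libraries. It was 3.00, 3.00 and 2.93 over the domains of the untreated libraries and 4.72, 4.72 and 4.62 over narrower regions. With maltonis it was 2.77, 2.82 and 2.82 over the domains and 4.14, 4.30 and 4.17 over narrower regions. The conditions did not overlap in either class (exact permutation test, p = 0.1 each). The ratio of domains to narrower regions was 0.634 to 0.636 without and 0.655 to 0.677 with maltonis, again without overlap (p = 0.1, exact permutation test).

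Each domain was then tested by limma on log2 fold enrichment, fitted over all 12099 shared regions, at a Benjamini-Hochberg adjusted p of 0.05. 18 domains (5.29%) rose and 110 (32.4%) fell with maltonis. Over all shared regions 3.69% rose and 43.9% fell. The median log2 change was -0.07 over the domains and -0.14 over all regions. When each library was centred on its median over all shared regions, log2 changes moved up by 0.16. Then 98 domains (28.8%) rose and 31 (9.12%) fell, against 14.8% and 13.6% of all regions, so the balance of rises and falls turns round with this scaling. All 18 and 110 calls without centring lay among the 303 domains away from the peak-free stretch. The 98 rises after centring include domains near it, such as chr4:49633428-49654137 and chr2:92305363-92325163.

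ID2 rose the most. It encodes an inhibitor of DNA-binding helix-loop-helix factors with a role in blood cell differentiation. The domain at chr2:8821584-8826015 had a fold enrichment of 2.94, 2.93 and 3.16 in untreated libraries and of 4.81, 3.95 and 4.69 with maltonis. Every maltonis library was above every untreated one, and the log2 change was 0.57 (SE 0.079, limma adjusted p = 0.00102). Over the same domain the called length was shorter, with 4394, 3775 and 3780 bp against 1497, 3713 and 1537 bp. H3K27ac rose there as well, from 236, 265 and 235 reads to 447, 480 and 437 reads in the overlapping island region (log2 change 0.93, edgeR FDR = 1.81e-05).

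The other 4 of the 5 largest rises had no gene name. At chr17:27914984-27921294 fold enrichment was 3.33, 3.70 and 3.49 without and 4.62, 4.92 and 4.67 with maltonis (log2 change 0.43, SE 0.056, limma adjusted p = 0.000776). The region at chr22:23558591-23562608 went from 2.63 ± 0.064 to 3.46 ± 0.14 (SD, n = 3, log2 change 0.40), and was also shorter with maltonis. At chr3:39218713-39222718 and chr2:97425990-97430624 the log2 changes were 0.42 and 0.30, with called lengths that overlapped between conditions. ADCY9, an adenylyl cyclase, and AGA, a lysosomal amidase, were the other named domains that rose, by log2 0.21 and 0.17 (limma adjusted p = 0.0117 and 0.0176).

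**Figure D3:**
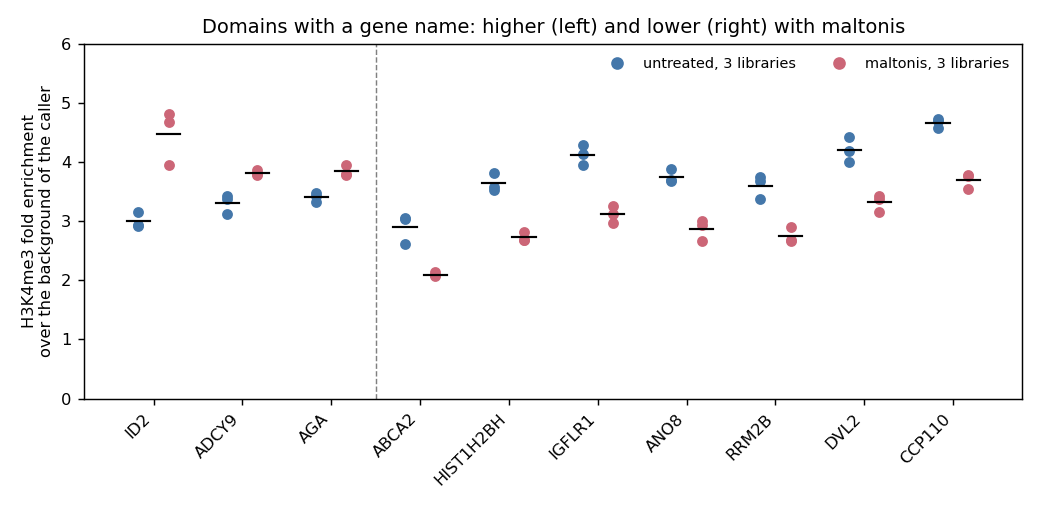
H3K4me3 fold enrichment over the background of the caller in each of 3 untreated (blue) and 3 maltonis (red) libraries at 10 named domains, with bars at the means. The 3 domains left of the dashed line were higher and the 7 to its right lower with maltonis, and no maltonis point overlaps the untreated points of its domain.

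The largest fall was at chr19:45578930-45583636. Its fold enrichment was 4.75, 4.74 and 4.74 without and 3.12, 3.39 and 3.20 with maltonis (log2 change -0.55, SE 0.049, limma adjusted p = 0.000233). The same domain was called in 2 pieces of 1968, 1869 and 1797 bp in sum before and in 1 piece of 4609, 4701 and 4520 bp after treatment. By contrast the call at chr15:64385047-64389458 kept its length, 4412, 4138 and 4091 bp against 4268, 4138 and 4216 bp. There fold enrichment went from 3.77, 4.17 and 4.10 to 2.83, 2.77 and 2.70, a log2 change of -0.54 (SE 0.054, limma adjusted p = 0.000336).

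The remaining 3 of the 5 largest falls were at chr17:18160670-18164891, chr11:28128239-28132584 and chr17:41172942-41177068, with log2 changes of -0.51, -0.50 and -0.47. Among named domains ABCA2, a lipid transporter of the lysosome, fell the most. It went from 3.06, 3.03 and 2.61 to 2.09, 2.07 and 2.14 (log2 change -0.46, SE 0.067, limma adjusted p = 0.00124). Its call widened from 5651, 4900 and 4850 bp to 8039, 8123 and 8094 bp. RRM2B, the p53-inducible subunit of ribonucleotide reductase, fell by 0.39 on the log2 scale (limma adjusted p = 0.00146) while its call widened from 2753, 2710 and 2788 bp to 3953, 4056 and 4001 bp. IGFLR1, a receptor related to those of tumor necrosis factor, fell by 0.40 (limma adjusted p = 0.000971) at calls of 3920 to 3973 bp in all 6 libraries. These 3 also fell after centring (adjusted p = 0.0115, 0.0116 and 0.00754).

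Length and fold enrichment moved against each other. Across the 340 domains the log2 length ratio and the log2 change of fold enrichment had a Pearson r of -0.33 and a Spearman rho of -0.42. These are correlations across regions of the same 6 libraries, which are not independent, and fold enrichment is itself an average over the called length. Of the 118 domains with longer calls in all maltonis libraries, 69 (58.5%) fell in fold enrichment and 4 (3.39%) rose, against 59.4% and 1.90% of the 6637 shared regions with such calls. Of the 40 with shorter calls 7 (17.5%) fell and 7 rose, against 26.4% and 11.5% of 488 shared regions. No difference between the domains and these regions was tested. 116 domains had a log2 length ratio within 0.1 of 0, and among them 31 fell and 4 rose. The same limit over all shared regions left 2665, of which 20.3% fell and 4.24% rose.

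**Figure D4:**
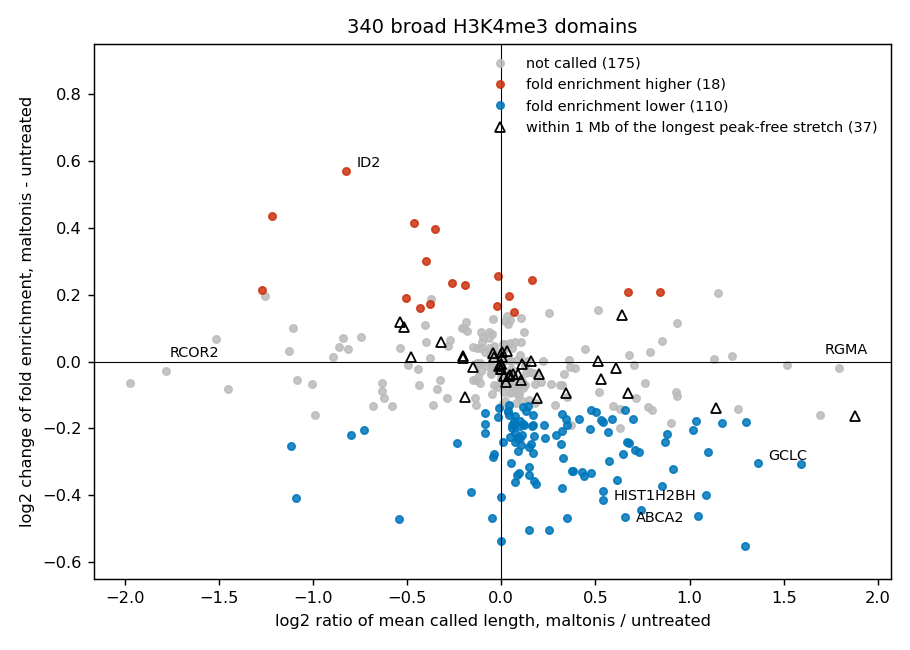
Each of the 340 domains by the log2 ratio of its mean called length (x axis) and its log2 change of fold enrichment (y axis), maltonis against untreated. Red points rose (18), blue points fell (110) and grey points passed no test by limma without centring, and open triangles mark the 37 domains near the peak-free stretch, none of which was called.

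H3K27ac, a readout that the rule did not use, covered nearly all domains. 324 of 340 (95.3%) were overlapped by an H3K27ac island in all 6 libraries, against 96.8% of the 11759 narrower shared regions. 12 domains (3.53%) were overlapped in none, against 0.87% of narrower regions. 9 of these 12 lay near the peak-free stretch, and the other 3 carried H3K9me3 in all 6 libraries. Away from the stretch 300 of 303 domains were overlapped in all 6 libraries. Islands covered 91.3% to 91.9% of the bases of the domains without and 90.4% to 90.9% with maltonis (exact permutation test, p = 0.1). Over the 303 domains away from the stretch islands covered 97.0% to 97.5% without and 95.9% to 96.7% with maltonis. Over narrower regions they covered 97.7% to 97.8% without and 96.9% to 97.2% with maltonis (exact permutation test, p = 0.1). The ratio of domains to narrower regions was 0.934 to 0.940 without and 0.933 to 0.936 with maltonis. In this ratio the groups overlapped (exact permutation test, p = 0.2). The islands were wide, with a median of 12783 bp over domains against 6900 bp over narrower regions, so most of their length lay outside the domain itself.

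Per kb of island, H3K27ac reads over domains numbered 171, 167 and 168 without and 178, 213 and 210 with maltonis. The groups did not overlap (exact permutation test, p = 0.1), and maltonis replicate 1 was closest to the untreated libraries. Narrower regions showed 133, 131 and 130 against 140, 167 and 164 reads per kb. The ratio between both classes was 1.28 to 1.29 without and 1.27 to 1.28 with maltonis, and the groups overlapped (exact permutation test, p = 0.2). The islands over the domains were shorter in sum in each maltonis library, with 5887, 6446 and 6130 kb without and 5642, 5521 and 5018 kb with maltonis (exact permutation test, p = 0.1). Their reads overlapped between conditions, with 1006363, 1077892 and 1029599 without and 1004622, 1176490 and 1053962 with maltonis (p = 0.7, exact permutation test).

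Reads were tested over 19504 H3K27ac regions with edgeR's quasi-likelihood test, with calls at an FDR of 0.01 and a log2 change of 0.58. Of the 331 regions that overlapped a domain, 16 (4.83%) gained and 22 (6.65%) lost reads. Over all regions 8.05% gained and 19.5% lost. With the called length of the island as an offset, 6 regions gained and 12 lost, against 2.18% and 4.61% of all regions. 6 and 10 were called by both fits. The median log2 change was 0.05 over domains and -0.02 over all regions. All regions include those without H3K4me3, so these shares do not set the domains apart from other H3K4me3 regions. Among shared H3K4me3 regions, 8.37% without a fold enrichment call, 8.16% with a lower and 7.40% with a higher one lay on a lost region. The domains had 7.08%, 5.45% and 0% in these classes. For gains the shares were 7.31%, 9.70% and 10.3%, against 1.89%, 10.0% and 16.7% of domains. No difference between them was tested. Most called regions over domains carry a gene name, since names came from regions called by the study.

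The gains with the largest size lay in the main cluster of replication-dependent histone genes on chromosome 6, where genes supply histone proteins in S phase. 7 domains lie in this span, and 5 of them were named HIST1H2AD, HIST1H2BH, HIST1H2BI, HIST1H2AI and HIST1H2AM, with names that come from regions the study called changed. The other two, at chr6:26327815-26332340 and chr6:27635535-27640154, had H3K27ac log2 changes of 0.48 and 0.18 and were called in neither mark. The 5 named domains share 2 very wide H3K27ac regions, so they are not 5 separate observations. The region chr6:25999401-26289400 held 33386, 34275 and 33851 reads without and 67939, 77668 and 72980 with maltonis (edgeR FDR = 4.94e-11). The region chr6:27752801-27874400 held 18396, 19016 and 18815 and then 38393, 43941 and 41299 reads (edgeR FDR = 4.94e-11). The log2 changes were 1.149 and 1.179. With the length offset they were 0.62 and 0.70 (edgeR FDR = 6.54e-07 and 2.72e-06), as the islands grew from 218400 to 286200 bp and from 92400 to 121400 bp between the first replicates. H3K4me3 fold enrichment fell at the 5 named domains, by 0.15 to 0.42 on the log2 scale, and after centring only HIST1H2BH remained lower (limma adjusted p = 0.00557).

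Of the other 14 gained regions, 12 lay at ANG, ID2, ARRDC3, IGFLR1, C8orf44, ADCY9, CCP110, RRM2B, DVL2, AGA, KLLN and RAD51B, and 1 at a domain without a name. The remaining one (log2 change 0.66) shared 1755 bp with the GCLC domain, less than another H3K27ac region there that was not called (log2 change -0.25, edgeR FDR = 0.0358). ANG, a secreted ribonuclease, went from 498, 510 and 481 to 832, 1000 and 934 reads (log2 change 0.93, SE 0.056, edgeR FDR = 7.20e-07). ARRDC3 rose from 1404, 1457 and 1440 to 2483, 2742 and 2544 reads (log2 change 0.90, SE 0.031, edgeR FDR = 2.77e-08), although its H3K4me3 call was shorter. For both genes the change held with the length offset, at 0.68 and 0.70. At ID2 the offset left 0.44, which was not called (edgeR FDR = 0.0349). The gain without a name lay under the domain chr7:1959400-1963811, with a log2 change of 0.90.

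**Figure D5:**
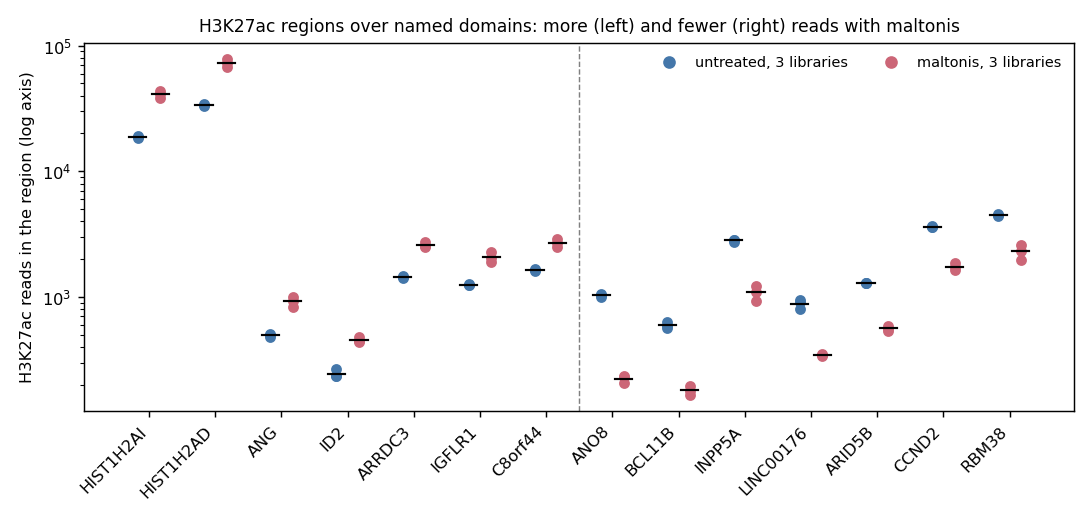
H3K27ac reads (log axis) in the island region over 14 named domains, in 3 untreated (blue) and 3 maltonis (red) libraries with bars at the means. The 7 regions left of the dashed line gained and the 7 to its right lost reads, and the points of both conditions do not overlap at any of them.

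ANO8, a gene of the anoctamin membrane protein family, lost the most H3K27ac. Its island region held 1056, 1040 and 1002 reads in untreated libraries and 207, 229 and 236 with maltonis (log2 change -2.16, SE 0.070, edgeR FDR = 2.10e-08). H3K4me3 fold enrichment fell there too, from 3.75 ± 0.11 to 2.87 ± 0.17 (SD, n = 3, log2 change -0.39, limma adjusted p = 0.00135). BCL11B, a zinc finger transcription factor of T cell development, went from 565, 593 and 635 to 179, 196 and 167 reads (log2 change -1.68, SE 0.093, edgeR FDR = 4.03e-07). Its H3K4me3 fold enrichment was 2.97 ± 0.13 and 2.71 ± 0.21 (SD, n = 3) and did not pass the test (limma adjusted p = 0.129).

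ARID5B, a DNA-binding protein known from lymphoid leukemia, lost H3K27ac in islands of 8200 to 9600 bp without and 8400 to 8600 bp with maltonis, from 1301, 1302 and 1296 to 541, 585 and 560 reads. Its log2 change was -1.17 without and -1.23 with the length offset. CCND2, the D-type cyclin that drives entry into the cell cycle, went from 3583, 3693 and 3581 to 1639, 1855 and 1735 reads (log2 change -1.01, SE 0.028, edgeR FDR = 8.89e-09), with H3K4me3 fold enrichment at 4.15 ± 0.095 and 4.10 ± 0.20 (SD, n = 3). INPP5A and LINC00176 had log2 changes of -1.34 and -1.31, and with the offset only LINC00176 was still called (-1.26). LYL1, a helix-loop-helix factor of early blood cells, and SMAD7, an inhibitor of TGF-beta signalling, lost reads with a log2 change of -0.64 each. The calls of LYL1 were slightly longer, with 4010, 3992 and 3997 bp against 4107, 4188 and 4166 bp.

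The calls of both marks were then set side by side. With each domain counted by the H3K27ac region that shares most bases with it, 18 domains lay on a gained and 21 on a lost region. Of the 18 domains with higher H3K4me3 fold enrichment 3 (16.7%) gained and 0 lost H3K27ac, namely gains at ID2, ADCY9 and AGA. Among all 446 shared regions with higher fold enrichment 10.3% gained and 7.40% lost. Of the 110 domains with lower fold enrichment 11 (10.0%) gained and 6 (5.45%) lost, and 5 of these 11 share the 2 histone regions. Among all 5309 such regions 9.70% gained and 8.16% lost. The log2 changes of both marks had a Pearson r of -0.11 and a Spearman rho of -0.21 over the 324 domains with both, as a description over regions that share libraries. Longer H3K4me3 calls went with more H3K27ac reads to a small degree (Pearson r 0.23, Spearman rho 0.27).

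The H3K4me3 lists held 15418 to 17333 peaks per library and no read counts, so their depth is unknown. The H3K27ac lists held 17659587 to 20412339 reads in islands and the H3K9me3 lists 2584920 to 3344547. H3K27ac islands covered 214.6 to 226.5 Mb without and 169.2 to 182.1 Mb with maltonis, and this shift moves with every H3K27ac count above. Its part in the changes was not tested beyond the length offset.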

How the data were processed

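ChIP-seq was performed by the authors on NB4 cells for 3 marks, in biological triplicates per condition. Reads were aligned to hg19 per the submitters' processing notes, which name BWA, SAMtools, MACS2 and SICER without versions. The deposited H3K4me3 lists (MACS2, broad) give a score, a fold enrichment ratio and −log10 p and q values per peak. The lowest deposited −log10 q was 1.00. The deposited H3K27ac and H3K9me3 islands (epic2, per the authors' methods, 200 bp windows) give raw read counts and an island score. Counts move with the length called in a library. The input used by the callers is not given in the sources used here.

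Peaks were merged per mark, and pieces and called bases were summed per library. Log2 fold enrichment was tested with limma (3.58.1) over 12099 regions. H3K27ac counts were summed per merged region present in all 6 lists and tested with edgeR (4.0.16) after TMM normalisation over 19504 regions, at an FDR of 0.01 and a log2 change of 0.58. Values per library were compared by exact permutation tests, two-sided. On simulated data limma recovered 84.0% of 200 regions changed by 0.5 (log2), with 8 false calls over 12099 regions, and edgeR 93.5% of 200 changed by 1, with 2 false calls over 19504. The limma simulation held no shift common to all regions, so it cannot show how the calls depend on centring.

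The domains, their limit and the comparisons were chosen with earlier results of these data known. Named are the 10 widest domains, 5 per direction by fold enrichment, by H3K27ac and by called length, 3 on each side of the width limit, and others chosen after their values were seen. Same-numbered libraries did not deviate together (correlations between -0.02 and 0.03), so numbers did not pair the samples. Gene lists, cell type markers and region sequences need an hg19 annotation and were not analysed here. Names mark an overlap with a region that the authors annotated, not a start inside the domain. Promoter letters come from RefSeq (GRCh38.p14).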

Additional observations from a re-analysis of the deposited data

How the results depend on the processing

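The mean gain in median called length, 206 bp, was 423 bp at a width limit of 6000 bp. The change in mean pieces was -0.053, -0.016 at a limit of 3000 bp and -0.13 at 6000 bp. At 6000 bp 14.6% of domains fell in fold enrichment and 0 H3K27ac regions gained reads, among 44 tested, against 4.83% before. There the groups also overlapped in pieces, in H3K27ac reads per kb (difference 21.7, exact permutation test p = 0.3) and in H3K9me3 overlap (difference 8.13 percentage points, exact permutation test p = 0.4). Centring each library gave 28.8% higher and 9.12% lower domains, against 5.29% and 32.4%, so the balance of rises and falls turned round. The called length as an offset gave 1.81% gained and 3.63% lost H3K27ac regions.

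With a replicate block, 4.71% of domains rose and 27.4% fell in fold enrichment, and 4.83% and 6.65% of H3K27ac regions gained and lost reads. The block with the length offset gave 1.51% and 3.02%. Same numbers did not mark paired samples, and the block changed no other count by over 1.5 times.

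Leaving out 1 library in turn, the length gain ranged from 174 to 243 bp and the change in pieces from -0.062 to -0.045. The change in median fold enrichment ranged from -0.199 to -0.159, that in H3K27ac density from 25.3 to 42.8 reads per kb, in H3K27ac coverage from -1.17 to -0.826 percentage points, and in H3K9me3 overlap from 5.69 to 7.45 percentage points. Domains higher in fold enrichment ranged from 3.53% to 5.29% and lower from 24.4% to 28.8%, and H3K27ac regions from 4.23% to 5.14% gained and 6.04% to 6.95% lost. 126 alternative values stayed within the replicate spread or within 1.5 times, 11 did not. Leaving out the domains near the peak-free stretch, or those with H3K9me3 in all 6 lists, were alternatives chosen after seeing the data, as was the block with the offset, and the first 2 moved no count by over 1.5 times. H3K4me3 lists without read counts limit the fold enrichment to an average per called peak.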
